A study of Mus musculus with 11 samples.

Results

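The genes described here mark the mast cell, erythroid and megakaryocyte lineages, which lie outside the lymphoid fate of the sorted cells: Cpa3, Fcer1a, Ms4a2 and Hdc for mast cells and basophils, Klf1 and Epor for erythroid cells, Pf4 and Itga2b for megakaryocytes, and the transcription factors Gata1 and Gata2, which serve all of these. They were chosen by name, with earlier results of these data known. Each was represented by its probe set with exactly 1 gene symbol and the highest mean over all 11 arrays, and all 10 were found, each with 1 probe set, among 22180 genes with such a probe set. The series measured mRNA of common lymphoid progenitors (CLPs) from the bone marrow of C57BL/6 mice on Affymetrix arrays. Mice received CpG1826, a DNA oligonucleotide that stimulates Toll-like receptor 9, at 50 µg, or the saline buffer PBS, on alternate days over a period of 10 days, and CLPs were sorted on day 10 by the surface protein Ly-6D. The groups were Ly-6D+ CLPs after CpG (3 arrays), Ly-6D+ CLPs after PBS (2 arrays), Ly-6D- CLPs after CpG (3 arrays) and Ly-6D- CLPs after PBS (3 arrays). The labels name no mutation or transgene and do not say whether replicates came from separate mice or pools, so p-values measure only the spread between these arrays, which may be technical.

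GATA2 acts in stem cells, early progenitors and mast cells, and GATA1 takes over in erythroid cells, megakaryocytes and mast cells, where both bind DNA at the letters GATA. Multipotent progenitors carry low levels of mRNA from several lineages at once, which is called lineage priming, and such mRNA is lost as cells commit. Among CLPs, Ly-6D+ cells are the fraction closer to the B lineage, and Ly-6D- cells keep a broader lymphoid potential.

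The sort was visible on the arrays. Ly6d itself averaged 12.57 ± 0.03 log2 units in Ly-6D+ CLPs after CpG (SD, n = 3) and 12.58 ± 0.02 after PBS (n = 2), against 7.72 ± 0.32 in Ly-6D- CLPs after CpG and 8.23 ± 0.24 after PBS (n = 3 each). The CLP genes Flt3, a cytokine receptor, and Dntt, which encodes terminal transferase, had group means of 10.54 to 10.84 and 12.01 to 12.30. All values are log2 array signals, in which 1 unit is a 2-fold step. As a rough guide to background, 1390 olfactory and vomeronasal receptor genes, which blood progenitors are not known to use, had a median level of 2.20 and a 95th percentile of 3.77. By mean over 11 arrays, 6 of the 10 genes lay above that percentile (Cpa3 6.49, Pf4 6.02, Hdc 5.41, Klf1 5.08, Gata2 5.08 and Epor 4.21), and 4 lay at or below it (Itga2b 3.64, Gata1 3.52, Ms4a2 3.23 and Fcer1a 2.17). Probe sets bind with different strength, so this sorts genes only roughly, and levels of different genes are not ranked against each other.

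Promoter windows from 250 bases before to 50 bases after the start of each gene were taken from RefSeq (GRCm38.p6), because the members are linked by GATA factors. All 10 genes matched, with 11 windows. Both strands were searched for GATA motifs, namely AGATAA and its relatives TGATAA, then AGATAG, then TGATAG. They were in 7 of the 11 windows, which belong to 7 genes, and in 29.8% of all 32851 windows of the table. The letters CCACACCC, a form bound by the erythroid factor KLF1, were in 0 of the 11 windows and in 3.6% of all windows. Other forms that KLF1 may bind were not searched. Shown here are Cpa3 and Gata2, the 2 genes that differed between the populations, and Ms4a2, which had 3 matches and did not pass the test in any comparison. Cpa3 lies on the minus strand (window chr3:20242132-20242431), Gata2 on the plus strand (chr6:88193641-88193940, the first of its 2 windows) and Ms4a2 on the minus strand (chr19:11623670-11623969). Capitals mark the matches to the GATA letters on either strand.
Cpa3: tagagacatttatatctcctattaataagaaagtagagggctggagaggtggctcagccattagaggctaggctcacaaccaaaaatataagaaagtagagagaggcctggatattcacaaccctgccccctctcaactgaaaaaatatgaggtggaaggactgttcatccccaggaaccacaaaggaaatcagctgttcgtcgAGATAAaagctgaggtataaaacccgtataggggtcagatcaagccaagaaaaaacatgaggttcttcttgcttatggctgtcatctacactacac
Gata2: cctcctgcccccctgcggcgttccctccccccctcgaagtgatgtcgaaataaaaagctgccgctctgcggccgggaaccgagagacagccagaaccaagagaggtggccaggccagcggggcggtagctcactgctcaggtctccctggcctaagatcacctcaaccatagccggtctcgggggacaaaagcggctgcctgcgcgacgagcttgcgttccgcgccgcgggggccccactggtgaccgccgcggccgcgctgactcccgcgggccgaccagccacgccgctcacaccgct
Ms4a2: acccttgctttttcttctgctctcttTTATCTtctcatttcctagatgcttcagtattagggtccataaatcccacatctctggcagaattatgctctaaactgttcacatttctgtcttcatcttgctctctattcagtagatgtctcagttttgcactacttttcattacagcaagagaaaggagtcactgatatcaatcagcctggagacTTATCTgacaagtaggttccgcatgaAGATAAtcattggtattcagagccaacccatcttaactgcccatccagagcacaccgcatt
The Cpa3 window held AGATAA once, 46 bases before the start. Neither Gata2 window held any of the letters searched. These are matches of letters and do not show binding.

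Cpa3 and Gata2 were lower in Ly-6D+ than in Ly-6D- CLPs, under either treatment, and the other 8 genes did not pass the test. Averaged over treatments, Cpa3 was 4.88-fold lower and Gata2 2.75-fold lower in Ly-6D+ CLPs. A gene passed when its p from a limma model over all 11 arrays, adjusted by Benjamini-Hochberg over 22180 genes, was below 0.05. By this rule 2 of the 10 genes were lower after PBS, where 0.798% of all genes were lower (1.98% passed in either direction). After CpG the count was again 2, where 0.938% of all genes were lower (2.14% in either direction). Averaged over treatments it was 2, where 2.22% of all genes were lower (4.59% in either direction). The median change of the 10 genes averaged over treatments was -0.10, against 0.00 for all genes tested. In sorted bulk samples, fewer cells carrying an mRNA and less of it per cell cannot be told apart.

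**Figure D1:**
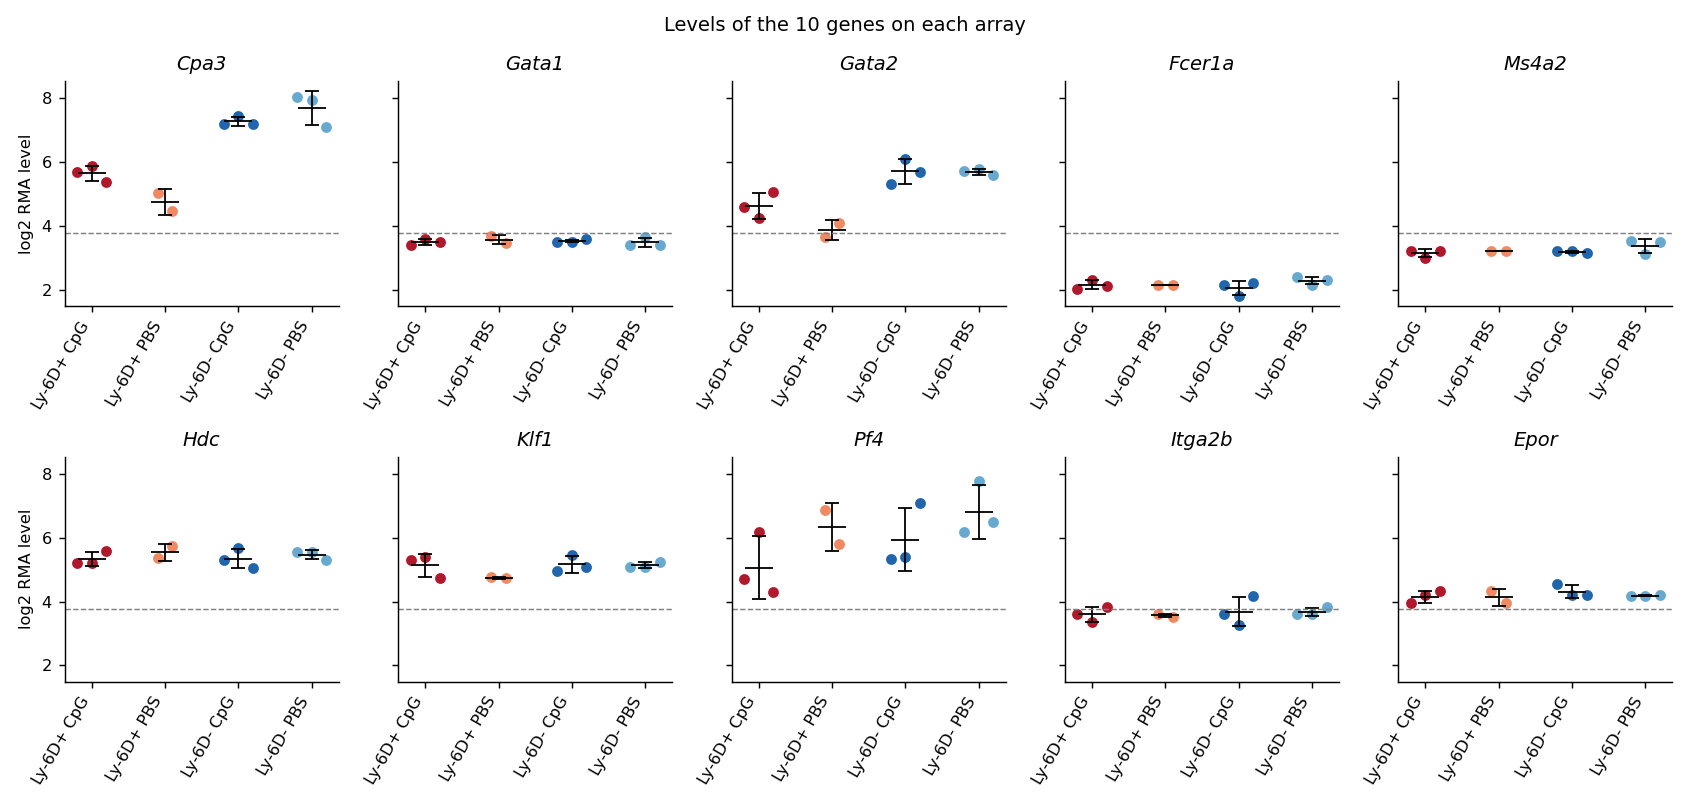
Log2 array signal of the 10 genes, 1 panel per gene, with 1 point per array and the mean and SD of each group in black, for Ly-6D+ CLPs after CpG (n = 3) and PBS (n = 2) and Ly-6D- CLPs after CpG and PBS (n = 3 each). The dashed line is the 95th percentile of the olfactory and vomeronasal receptor genes, 3.77. Cpa3 and Gata2 show every Ly-6D+ array below every Ly-6D- array.

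Among the mast cell genes, Cpa3, which encodes the granule protease carboxypeptidase A3, carried the largest difference of the 10. Its levels were 5.69, 5.87 and 5.39 in Ly-6D+ CLPs after CpG and 5.04 and 4.47 in Ly-6D+ CLPs after PBS. They were 7.21, 7.44 and 7.19 in Ly-6D- CLPs after CpG and 8.05, 7.95 and 7.09 in Ly-6D- CLPs after PBS. All 5 Ly-6D+ arrays lay below all 6 Ly-6D- arrays, as they did for Gata2, an arrangement that 1.97% of all genes had. The log2 difference was -2.94 (SE 0.28, adjusted p = 3.28e-04) after PBS and -1.63 (SE 0.25, adjusted p = 0.0061) after CpG. Averaged over treatments it was -2.29 (SE 0.19, 95% interval -2.70 to -1.87, adjusted p = 4.72e-05). Cpa3 averaged 5.65 ± 0.24 in Ly-6D+ CLPs after CpG and 4.76 ± 0.40 after PBS, against 7.28 ± 0.14 in Ly-6D- CLPs after CpG and 7.70 ± 0.53 after PBS. Of neighbouring groups in the order of these means, only the 2 Ly-6D- groups overlapped array by array. Even the lowest Cpa3 array, at 4.47, stood above the 95th percentile of the receptor genes.

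The remaining mast cell genes did not pass the test. Hdc, the enzyme that makes histamine, averaged 5.34 ± 0.22 in Ly-6D+ CLPs after CpG and 5.54 ± 0.26 after PBS, against 5.34 ± 0.30 in Ly-6D- CLPs after CpG and 5.47 ± 0.15 after PBS. Its difference averaged over treatments was 0.03 (95% interval -0.26 to 0.32, adjusted p = 0.946), so a difference as large as that of Cpa3 lay outside the interval. Fcer1a and Ms4a2 encode the alpha and beta chains of the high-affinity IgE receptor. Fcer1a lay between 1.81 and 2.40 on all arrays, with a population difference of -0.01 (95% interval -0.22 to 0.19, adjusted p = 0.966). Ms4a2 lay between 3.0 and 3.53, with a difference of -0.10 (95% interval -0.30 to 0.09, adjusted p = 0.642). Both genes stayed under the receptor percentile on every array, and 6 of the 11 arrays shared 1 value of Ms4a2 to 2 decimals, so their spread may be too small a measure of error.

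Of the GATA factors, Gata2 was lower in Ly-6D+ CLPs and Gata1 did not pass. Gata2 levels were 4.58, 4.26 and 5.05 in Ly-6D+ CLPs after CpG and 3.64 and 4.08 after PBS. In Ly-6D- CLPs they were 5.33, 6.10 and 5.70 after CpG and 5.72, 5.79 and 5.60 after PBS. Every Ly-6D+ array was below every Ly-6D- array, and the closest pair, both after CpG, stood at 5.05 and 5.33. The log2 difference was -1.84 (SE 0.25, adjusted p = 0.00385, 3.59-fold lower) after PBS and -1.08 (SE 0.23, adjusted p = 0.0376, 2.11-fold lower) after CpG. The average over treatments was -1.46 (SE 0.17, adjusted p = 6.19e-04), and it passed whichever array was left out. The call after PBS ended without Ly-6D+ PBS replicate 1 (-1.62, adjusted p = 0.0606). The call after CpG ended without replicate 1 (adjusted p = 0.120) or replicate 2 (0.125) of Ly-6D+ CpG. It also ended without replicate 2 (0.139) or replicate 3 (0.0837) of Ly-6D- CpG, without any one replicate of Ly-6D- PBS (0.0631, 0.0604 and 0.0600 for replicates 1, 2 and 3), and with only the compared groups in the model (0.148). Gata2 averaged 4.63 ± 0.40 in Ly-6D+ CLPs after CpG and 3.86 ± 0.31 after PBS, against 5.71 ± 0.38 in Ly-6D- CLPs after CpG and 5.70 ± 0.10 after PBS, and again only the 2 Ly-6D- groups overlapped. Gata1 lay between 3.39 and 3.67 on all 11 arrays, under the receptor percentile, and its population difference was 0.03 (95% interval -0.14 to 0.20, adjusted p = 0.915).

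The erythroid and megakaryocyte genes did not pass the population test. Klf1, an erythroid transcription factor, averaged 5.14 ± 0.36 in Ly-6D+ CLPs after CpG and 4.75 ± 0.03 after PBS, against 5.18 ± 0.27 in Ly-6D- CLPs after CpG and 5.14 ± 0.09 after PBS. After PBS its 2 Ly-6D+ arrays, at 4.77 and 4.73, lay below its 3 Ly-6D- arrays, at 5.09, 5.09 and 5.25 (difference -0.40, SE 0.20, adjusted p = 0.490). Klf1 was thus 1 of 3 members with arrays lower in Ly-6D+ CLPs and not overlapping after PBS, beside Cpa3 and Gata2, and 14.0% of all genes were arranged that way. Epor, the erythropoietin receptor, lay between 3.95 and 4.55, with a difference averaged over treatments of -0.10 (95% interval -0.34 to 0.13, adjusted p = 0.708). Itga2b, the integrin chain CD41 of platelets, lay between 3.27 and 4.18, with a difference of -0.10 (95% interval -0.43 to 0.24, adjusted p = 0.833). For Epor and for Itga2b, 4 of the 11 arrays shared 1 value to 2 decimals, so their spread too may be too small a measure of error.

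Pf4, the platelet chemokine also called CXCL4, varied most among replicates. Its levels were 4.71, 6.18 and 4.31 in Ly-6D+ CLPs after CpG and 6.88 and 5.81 after PBS. In Ly-6D- CLPs they were 5.35, 5.40 and 7.09 after CpG and 6.18, 7.78 and 6.49 after PBS. Replicates of one group lay more than 1 unit apart in every group, and each group overlapped with others. The population difference averaged over treatments was -0.67 (SE 0.46, 95% interval -1.70 to 0.35, adjusted p = 0.541).

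**Figure D2:**
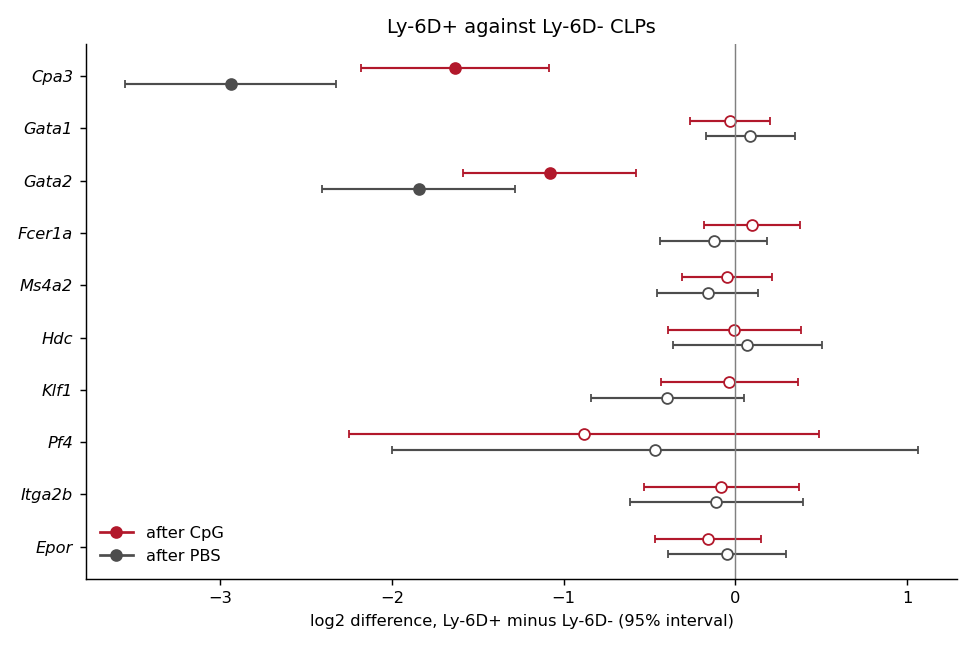
Log2 difference, Ly-6D+ minus Ly-6D- CLPs, of the 10 genes after CpG and after PBS, with 95% intervals from limma. Filled points passed an adjusted p of 0.05 over all genes and open points did not. Only Cpa3 and Gata2 have filled points, all below 0, and the intervals of Pf4 are the widest.

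None of the 10 genes passed the test for a CpG change in either population. In Ly-6D+ CLPs the count by limma was 0 of 10, with 0.0271% of all genes called, and 2 of 10 had an unadjusted p below 0.05, as had 6.51% of all genes. In Ly-6D- CLPs it was 0 of 10, with 0.546% of all genes called, and 0 of 10 had an unadjusted p below 0.05, against 12.0% of all genes. Averaged over populations it was 0 of 10, with 0.482% of all genes called, and 2 of 10 at an unadjusted p below 0.05, against 11.3%. Those 2 were Pf4, described below, and Gata2 (0.39, SE 0.17, unadjusted p = 0.0446, adjusted p = 0.422). A limma fit with a variance trend and robust estimation also gave 0 of 10 in each of these comparisons. The comparisons by population and by treatment share the same arrays, so they are not independent of each other.

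The 2 genes behind the unadjusted count in Ly-6D+ CLPs were Cpa3 and Gata2. Cpa3 had a CpG change of 0.89 in Ly-6D+ CLPs (SE 0.28, 95% interval 0.28 to 1.5, unadjusted p = 0.00877, adjusted p = 0.549), and its arrays did not overlap. In Ly-6D- CLPs its change was -0.42 (SE 0.25, adjusted p = 0.566), with overlapping arrays. Gata2 differed by 0.77 in Ly-6D+ CLPs (SE 0.25, 95% interval 0.21 to 1.33, adjusted p = 0.579), again without overlap, while in Ly-6D- CLPs the difference was 0.01 (SE 0.23, adjusted p = 0.997). Arrays higher after CpG and not overlapping were found for these 2 of the 10 genes and for 10.7% of all genes in Ly-6D+ CLPs. The lower side of that comparison rests on 2 PBS arrays, and Gata2 on the lower of them, at 3.64, lay under the receptor percentile.

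The test of whether the CpG changes differ between Ly-6D+ and Ly-6D- CLPs passed for 0 of 10 members and 0.0% of all genes by limma. With an unadjusted p below 0.05 there were 2 members, against 6.37% of all genes, and the trend and robust fit passed 0 members. These were Cpa3, with a difference of 1.31 (SE 0.37, 95% interval 0.48 to 2.13, unadjusted p = 0.0052, adjusted p = 0.622), and Gata2, with 0.76 (SE 0.34, 95% interval 0.01 to 1.52, unadjusted p = 0.0478, adjusted p = 0.783). The same numbers can be read from the populations, where the Cpa3 difference was -1.63 after CpG and -2.94 after PBS.

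Pf4 had a CpG change of -1.07 averaged over populations (SE 0.46, 95% interval -2.10 to -0.05, unadjusted p = 0.042, adjusted p = 0.415). Within populations its change was -1.28 in Ly-6D+ CLPs (adjusted p = 0.839) and -0.87 in Ly-6D- CLPs (adjusted p = 0.649), and the arrays overlapped in both. Among the remaining 7 genes, CpG changes averaged over populations ran from -0.17 for Hdc to 0.21 for Klf1.

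**Figure D3:**
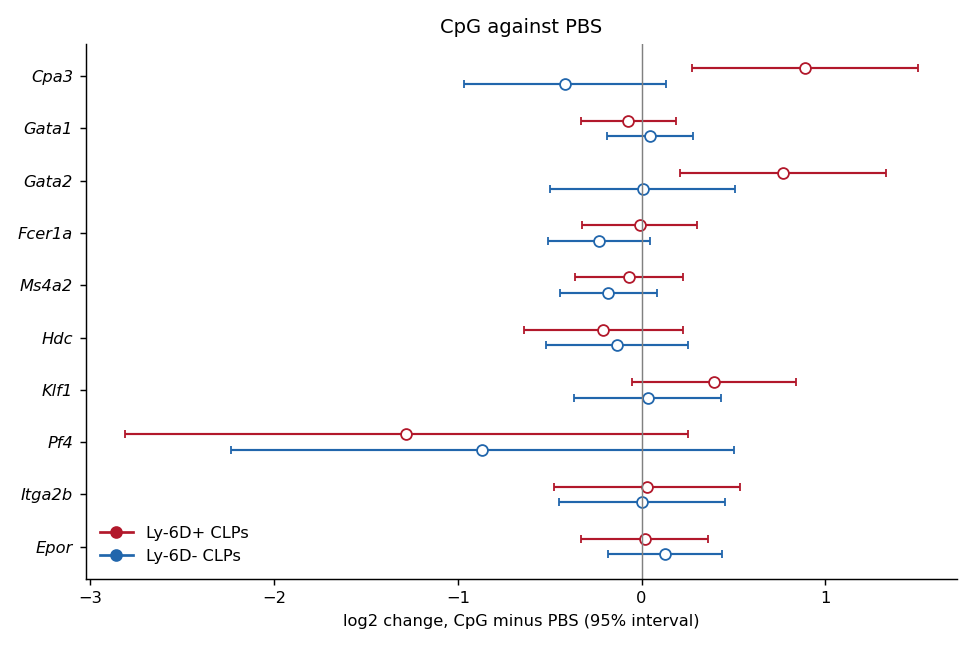
Log2 difference, CpG minus PBS, of the 10 genes in Ly-6D+ CLPs (red) and Ly-6D- CLPs (blue), with 95% intervals from limma. All points are open, since none passed an adjusted p of 0.05 over all genes. Cpa3 and Gata2 lie to the right of 0 in Ly-6D+ CLPs.

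Further genes of the same lineages were read from lists, with the 10 genes set aside. The lists were written with earlier results of these data known, so their counts are a description and no independent test. Of 18 other mast cell and basophil genes, 4 were lower in Ly-6D+ CLPs averaged over treatments, 0 were higher and 14 did not pass, where 2.22% of all genes were lower and 4.59% passed in either direction. Ltc4s, the enzyme of leukotriene C4 synthesis, differed by -1.41 (SE 0.20), and Mcpt8, a basophil granule protease, by -1.22 (SE 0.18). Cd63, a tetraspanin of granule membranes, differed by -1.02 (SE 0.15). By treatment, Cd63 passed after PBS (-1.22, adjusted p = 0.0178) and not after CpG (-0.82, adjusted p = 0.0623). Kit, the stem cell factor receptor that mast cells and early progenitors share, differed by -0.88 (SE 0.09). Kit averaged 8.29 ± 0.11 in Ly-6D+ CLPs after CpG and 8.23 ± 0.14 after PBS, against 8.96 ± 0.19 in Ly-6D- CLPs after CpG and 9.31 ± 0.11 after PBS. The proteases of mature mast cells Cma1, Mcpt4, Tpsab1 and Tpsb2 had group means under the receptor percentile in all 4 groups, the highest at 3.21. Fcer1g, the signalling chain shared by several Fc receptors, was 0.60 higher in Ly-6D+ CLPs after PBS (adjusted p = 0.0363) and did not pass averaged over treatments (0.31, adjusted p = 0.0625). The median over the 18 genes was -0.08, against 0.00 for all genes.

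The erythroid list moved both ways. Of 20 genes beside Klf1 and Epor, 2 were higher in Ly-6D+ CLPs, 2 were lower and 16 did not pass, a total of 4 beside the 4.59% of all genes that passed. Tfrc, the transferrin receptor that takes up iron, was higher by 0.82 (SE 0.07), and Slc25a37, which carries iron into mitochondria, by 0.79 (SE 0.09). Car2, a carbonic anhydrase, differed by -1.67 (SE 0.09, 3.19-fold lower). Its means were 6.99 ± 0.15 in Ly-6D+ CLPs after CpG and 7.01 ± 0.19 after PBS, against 8.53 ± 0.07 in Ly-6D- CLPs after CpG and 8.82 ± 0.18 after PBS. Tspan33, a tetraspanin, differed by -0.45 (SE 0.11, adjusted p = 0.0352) near the receptor percentile, with -0.80 after CpG (adjusted p = 0.0144) and -0.11 after PBS (adjusted p = 0.872). Its call averaged over treatments held only without array 2 of Ly-6D+ CLPs after PBS or array 3 of either Ly-6D- group. It ended under the other 8 omissions of 1 array (adjusted p up to 0.154) and with arrays centred on their medians (0.0625).

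Of 17 megakaryocyte and platelet genes beside Pf4 and Itga2b, 1 was higher, 2 were lower and 14 did not pass, beside the 4.59% of all genes that passed. Gp9, a subunit of the von Willebrand factor receptor of platelets, differed by -1.15 (SE 0.14, 2.22-fold lower). By treatment, Gp9 passed after PBS (-1.58, adjusted p = 0.00365) and not after CpG (-0.72, adjusted p = 0.106). Nrgn, a calmodulin-binding protein, differed by 0.65 (SE 0.12, adjusted p = 0.0142). It passed after CpG (0.91, adjusted p = 0.0172) and not after PBS (0.38, adjusted p = 0.467). Selp, which encodes P-selectin, passed on the lower side (adjusted p = 0.0141), but its means in Ly-6D+ CLPs, 3.49 after CpG and 3.45 after PBS, lay under the receptor percentile, so the size of its difference is uncertain. Selp also passed after CpG (-1.27, adjusted p = 0.0147) and not after PBS (-0.48, adjusted p = 0.502). The calls of Selp and Nrgn averaged over treatments ended without Ly-6D+ PBS replicate 1 (adjusted p = 0.0769 and 0.0684), which left 1 gene of the list. The list median was 0.03.

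**Figure D4:**
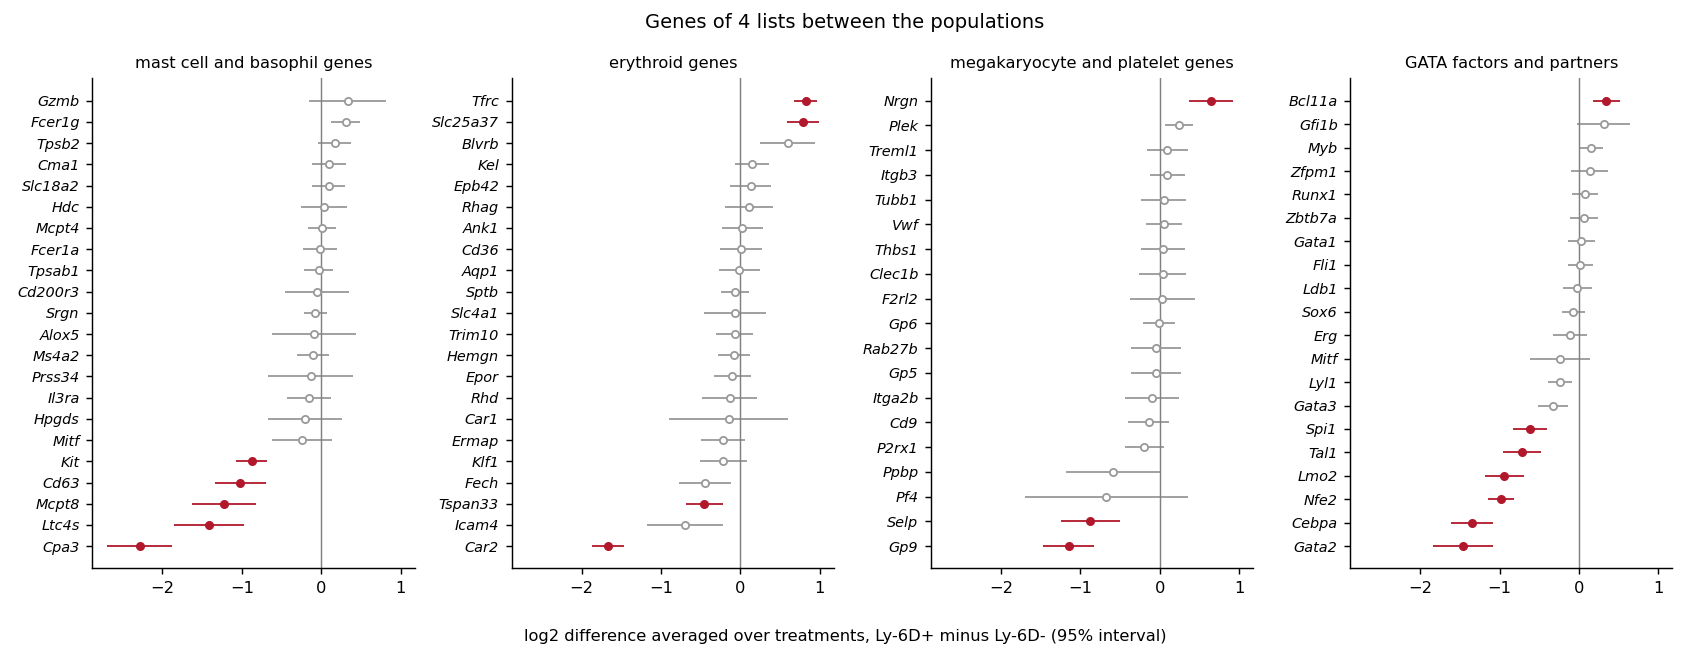
Log2 difference, Ly-6D+ minus Ly-6D- CLPs averaged over treatments, of the genes of 4 lists (mast cell and basophil, erythroid, megakaryocyte and platelet, GATA factors and partners), 1 point per gene with its 95% interval, and filled red points for an adjusted p below 0.05. Most points lie near 0, and those that passed lie on both sides in the erythroid, megakaryocyte and GATA lists.

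On a list of GATA factors, their partners and other blood transcription factors, most of those that passed were lower in Ly-6D+ CLPs. Of 18 besides Gata1 and Gata2, 5 were lower in Ly-6D+ CLPs, 1 was higher and 12 did not pass, where 2.22% of all genes were lower and 4.59% passed in either direction. Nfe2, a regulator of platelet formation, differed by -0.98 (SE 0.07), Lmo2, a bridging protein of GATA complexes, by -0.94 (SE 0.11), and Tal1, its DNA-binding partner, by -0.72 (SE 0.11). Lmo2 averaged 6.54 ± 0.18 in Ly-6D+ CLPs after CpG and 6.48 ± 0.08 after PBS, against 7.47 ± 0.25 in Ly-6D- CLPs after CpG and 7.44 ± 0.19 after PBS. The myeloid factors Cebpa and Spi1, also counted among the 5 lower genes, differed by -1.35 (SE 0.12) and -0.62 (SE 0.10). Spi1 did not pass after PBS (-0.45, adjusted p = 0.187). Bcl11a, a repressor used by B-cell progenitors and in globin switching, was 0.34 higher (adjusted p = 0.0281). It passed neither after PBS (0.31, adjusted p = 0.274) nor after CpG (0.38, adjusted p = 0.103). Its call averaged over treatments held only without array 2 of Ly-6D+ CLPs after CpG or array 3 of either Ly-6D- group. That call ended under the other 8 omissions (adjusted p up to 0.115).

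None of the genes on these 4 lists passed limma's test for a CpG change, whether within either population or averaged over both. Counts at an unadjusted p below 0.05 follow, with the 10 genes still set aside. In Ly-6D+ CLPs they were 0 of 18 mast cell and basophil genes and 1 of 20 erythroid genes. They were also 0 of 17 megakaryocyte genes and 1 of 18 genes of the GATA list, where the share over all genes was 6.51%. In Ly-6D- CLPs those counts were 5, 4, 5 and 7, where the share over all genes was 12.0%. The fit with a variance trend and robust estimation passed 1 of these genes, Fcer1g in Ly-6D- CLPs, whose change was 0.54 (SE 0.11, adjusted p = 0.0609 by the standard fit).

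Genes of other cell types differed between the same arrays, with counts and differences averaged over treatments. In that comparison 2.22% of all genes were lower in Ly-6D+ CLPs and 4.59% passed in either direction. Of 9 stem and multipotent progenitor genes, 7 were lower in Ly-6D+ CLPs and 0 higher, among them Cd34 (-1.18) and Hlf (-1.54). The mean level of that list was 5.58 to 5.86 in Ly-6D+ CLPs after CpG and 5.78 to 5.85 after PBS, against 6.30 to 6.60 in Ly-6D- CLPs after CpG and 6.75 to 6.80 after PBS. Of 14 granulocyte and monocyte genes, 7 were lower and 0 higher, among them F13a1 (-2.54) and Ccr2 (-1.58), with list means of 8.42 to 8.64 in Ly-6D+ CLPs after CpG and 8.19 to 8.74 after PBS, against 9.35 to 9.78 in Ly-6D- CLPs after CpG and 9.0 to 9.22 after PBS. Of 7 eosinophil genes 0 passed by limma, and 0 had an unadjusted p below 0.05. Among them, Prg2 varied widely between replicates, from 4.41 to 8.63 in Ly-6D+ CLPs after PBS and from 3.96 to 7.89 in Ly-6D- CLPs after PBS. A large difference in Prg2 could therefore be missed. Of 11 B-lineage genes 10 were higher in Ly-6D+ CLPs, such as Igll1 (5.54) and Ebf1 (3.75). So were 8 of 9 plasmacytoid dendritic cell genes, such as Siglech (2.86). Those 8 include Ly6d, the gene of the sorting protein, whose difference was set by the sort. Of 9 early lymphoid genes 4 were higher, such as Il7r (1.07), and 1 was lower, and 1 of 6 T-cell genes (Thy1, 1.03) and 1 of 8 NK and innate lymphoid genes (Klrd1, 1.62) were higher. The part of these other genes in the Cpa3 and Gata2 differences was not tested.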

How the data were processed

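RNA from sorted CLPs was measured on 11 arrays. Per the labels' protocols, amplification started from 5 ng of RNA, and 5 µg of cDNA went into labelling. The authors deposited log2 values; the submitters' processing notes name RMA and Partek without versions. RMA draws arrays to a common distribution (medians 3.85 to 3.96). Of 41345 probe sets, 23521 had exactly 1 symbol in the supplied probe table, giving 22180 genes. Some list members, such as Il1rl1 and several globin genes, were not analysed here.

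From these values limma 3.58.1 in R 4.3.3 fitted 1 mean per group (7 residual and 3.48 prior degrees of freedom), and the test was checked on simulated data. Means carry the SD between arrays. Intervals are 95% and not adjusted for multiple tests. The number of arrays limits the precision. Python 3.11.15 prepared tables and figures. The 10 genes, the lists and the tests were chosen with earlier results of these data known. All 10 genes are named, with up to 6 genes of each of 4 lineage lists that passed any comparison, by smallest adjusted p, and at most 2 of each other list. Alternatives covered probe set choice, dim genes, median centring, the variance model, the samples in the model, a block for replicate numbers, and the omission of each array in turn.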

Additional observations from a re-analysis of the deposited data

How the results depend on the processing

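The 10 genes were recomputed in every comparison under each alternative, 1146 values in all. None of the called values changed sign, 10 calls were lost, all of Gata2, and 0 were gained. Signs changed in 69 values that had not passed. Cpa3 passed in all 50 of its recomputed population comparisons, with adjusted p up to 0.0374. The count of members lower after CpG was 1, against 2, both with only the compared groups in the model and with replicate numbers as a block (Gata2, adjusted p = 0.0525 under the block). Leaving out single arrays gave counts of 1 to 2 after PBS and 1 to 2 after CpG. The labels do not say whether replicate numbers pair the samples. Of 15 same-numbered pairs, 2 correlated above 0.1 (range -0.03 to 0.18), both with Ly-6D+ CpG replicate 3. Its correlation was 0.18 with Ly-6D- CpG replicate 3 and 0.13 with Ly-6D- PBS replicate 3. Whether same-numbered arrays shared a batch was not tested. Leaving out the dimmest genes kept 14786 genes and 8 of the 10 members, without Fcer1a and Ms4a2.

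Counts over all genes moved more. Ly-6D+ against Ly-6D- CLPs after PBS gave 439, against 190 with only the compared groups, 660 under the variance trend with robust estimation, and 185 to 416 when arrays were left out. After CpG these were 474, 264, 726 and 264 to 516. Averaged over treatments, 1018 genes passed and leaving out arrays gave 615 to 955. CpG against PBS gave 6 genes in Ly-6D+ CLPs (0 with only the compared groups, 18 with the trend, 11 with the block, 4 to 16 without 1 array) and 121 in Ly-6D- CLPs (4 with only the compared groups, 236 without dim genes, 425 with the trend, 5 to 309 without 1 array). Averaged over populations it gave 107, with 302 under the trend and 6 to 216 without 1 array. The causes were not tested.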

Other observations

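For the 3 members whose group means spanned at least 1 log2 unit, the genes with the highest Pearson's r over 11 arrays were listed. Predicted and numbered gene symbols were passed over. The list is a description only, since the arrays fall into the 2 sorted populations. Pearson's r compares the pattern over arrays, and not the level or the size of a change. Wfdc17 (r = 0.979), Osbpl1a (0.970) and Adgrl4 (0.970) were nearest to Cpa3. Wfdc17 averaged 9.18 in Ly-6D+ CLPs after CpG and 8.78 after PBS, against 10.45 in Ly-6D- CLPs after CpG and 10.73 after PBS, the same order of groups as Cpa3. Rps12 (0.959), Mc5r (0.955) and Slc22a18 (0.953) were nearest to Gata2. Rps12 had group means of only 13.02 to 13.12. It did not pass limma's test between the populations averaged over treatments (-0.08, adjusted p = 0.54). Mc5r averaged 4.89 in Ly-6D+ CLPs after CpG and 3.83 after PBS, against 7.33 in Ly-6D- CLPs after CpG and 7.06 after PBS. Ccl27a (0.905), Ccser1 (0.894) and Klhl12 (0.883) were nearest to Pf4. They did not pass that test either (adjusted p = 0.667, 0.435 and 0.856 by limma).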
